A study of Mus musculus with 84 samples.

Results

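The comparison described here was between colon RNA-seq libraries of germ-free mice that were fed a high-fat diet (HFD) and received gut bacteria from either of 2 kinds of donor. HFDHFB recipients were given bacteria from HFD-fed donors (high-fat bacteria, HFB), and HFDLFB recipients were given bacteria from donors on a low-fat diet (LFD; low-fat bacteria, LFB). The libraries were the columns of the gene count table with those group names, 3 HFDHFB and 3 HFDLFB, which are 6 of the 12 RNA-seq libraries and 6 of the 84 samples of the series. All recipients were male C57BL/6 mice bought germ-free when young, gavaged repeatedly over several weeks with a suspension of stool, and all donors were male, so that both groups shared strain, sex, diet and the procedure and differed in the donors' diet. LFDHFB and LFDLFB, with 3 libraries each, received the same kinds of bacteria on the LFD and served as the same contrast on the other diet. The labels call the tissue colon epithelium, but per the study's methods the RNA came from cells scraped off the colon, whereas chromatin was taken from epithelium released with EDTA. Nothing in the labels says how many mice a library held or whether the recipients of a group shared a cage or a donor, so the p-values below measure the spread between libraries only.

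The colon epithelium is a single layer of cells that is renewed from stem cells at the base of the crypts. Its dividing progenitors give rise to absorptive colonocytes, mucus-secreting goblet cells, hormone-secreting enteroendocrine cells and chemosensory tuft cells. Gut bacteria are known to act on this layer through fermentation products, bile acid conversion and microbial molecules that innate receptors sense, and germ-free mice are the usual host for testing a transferred community. Below the epithelium lie connective tissue with immune cells, vessels and enteric nerves, then smooth muscle, and outside that the mesothelium and attached fat, which a scraping can also carry.

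The 6 libraries held between 39904191 and 45204313 reads assigned to genes, and the highest correlation of log2 counts scaled to library size (CPM, reads per 1000000) between any 2 of the 12 libraries was 0.9875, so no library was a copy of another. Epithelial markers (Epcam, Cdh1, Krt8 and 7 others) summed to 15965, 13790 and 14096 CPM in HFDHFB replicates 1, 2 and 3 and to 12569, 11187 and 14386 CPM in HFDLFB replicates 1, 2 and 3, so the labelled tissue was present in each library. The sums of HFDLFB replicates 1 and 2 were below those of every HFDHFB library, so the level was not equal between the groups. Markers of other tissues were not evenly spread over the libraries. Mesothelial markers summed to 47.0, 52.2 and 99.8 CPM in HFDHFB and to 377, 474 and 91.1 CPM in HFDLFB. Adipocyte markers summed to 191, 628 and 387 CPM in HFDHFB and to 1434, 3328 and 578 CPM in HFDLFB. HFDLFB replicates 1 and 2 therefore stood apart from the other 4 libraries in both lists, while HFDLFB replicate 3 lay within the HFDHFB range for the mesothelium and the adipocyte. That replicate in turn held digestive enzymes of the exocrine pancreas, with 4728 reads of Pnlip, 5035 of Ctrb1 and 3075 of Cpa1, against at most 66 reads of any of these in another of the 12 libraries. In bulk RNA, fewer cells of a type and less RNA per cell cannot be told apart. The main results below are also given with HFDLFB replicate 3 alone standing for its group, and the part of tissue composition in the results was not tested. That library also differed from HFDHFB in other tissue, with a smooth muscle sum of 1110 CPM against 1981 to 7104 CPM in HFDHFB. With it alone, the differences of some lists shrank and those of others grew.

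**Figure D1:**
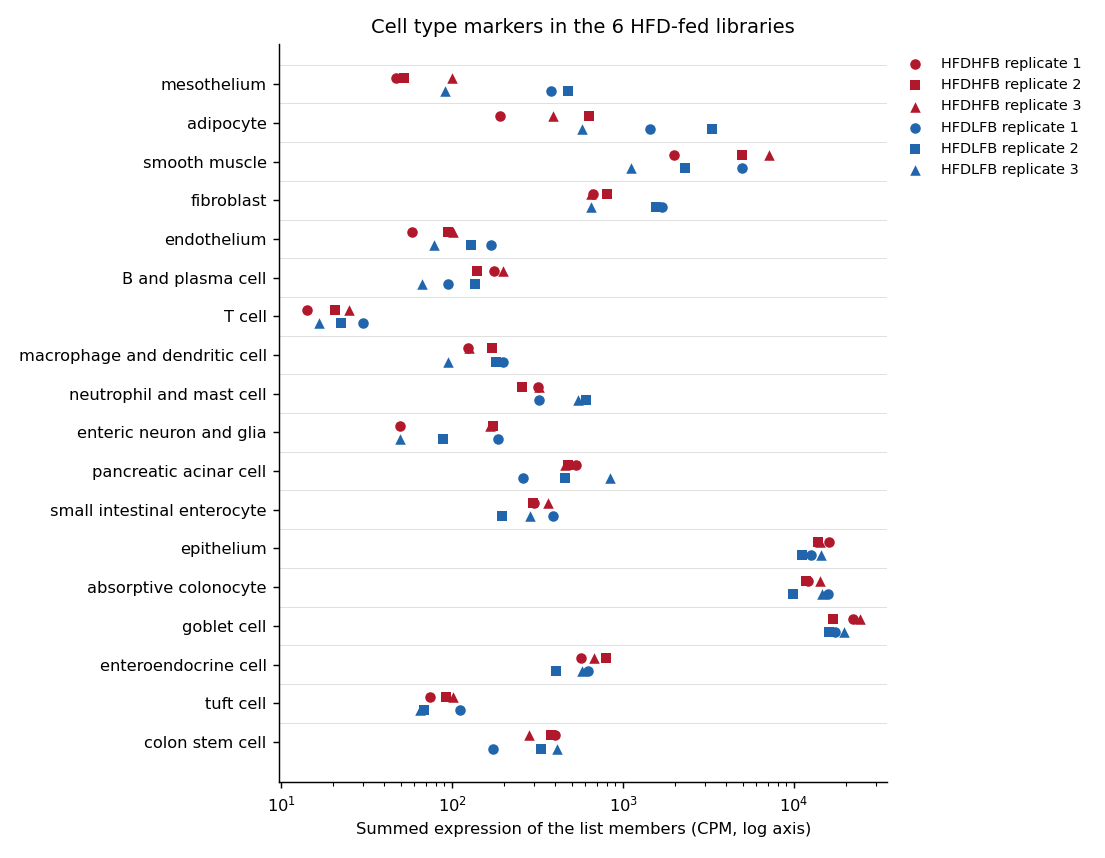
Summed expression (CPM, log axis) of the members of 18 cell type marker lists in each of the 6 HFD-fed libraries, HFDHFB in red and HFDLFB in blue, with the symbol giving the replicate. HFDLFB replicates 1 and 2 lie to the right of the other 4 libraries for the mesothelium, the adipocyte and the fibroblast. Most of the neutrophil and mast cell sum comes from Ly6g.

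A posterior gene varied widely within both groups. Hoxd13, a Hox gene of the posterior hindgut chosen after its values were seen, was at 132, 86.7 and 8.23 CPM in HFDHFB and at 31.4, 50.3 and 115 CPM in HFDLFB. The spread within each group was larger than the difference between the groups (log2 fold change 0.21 ± 1.23, SE). Ly6g, also chosen after its values were seen, gave most of the summed neutrophil and mast cell CPM in all 6 libraries, at 236 to 305 CPM in HFDHFB and 306 to 594 CPM in HFDLFB. The neutrophil genes S100a8, S100a9 and Csf3r were at no more than 1.41 CPM in these libraries. The sum of this list is therefore not read as an amount of neutrophil RNA.

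No gene passed the test of HFDHFB against HFDLFB. Of 15893 genes tested with edgeR's quasi-likelihood test on the counts, 0 (0%) had a Benjamini-Hochberg adjusted p under 0.05, the smallest adjusted p being 0.495. The unadjusted p was under 0.001 for 14 genes, 5 higher and 9 lower in HFDHFB, and under 0.05 for 771 higher genes (4.85% of those tested) and 670 lower genes (4.22%). All log2 fold changes below are HFDHFB over HFDLFB from this fit, with their standard error (SE), and every gene has an edgeR adjusted p of at least 0.495. DESeq2, the other count test run, called 18 genes higher (0.11% of 16421 with an adjusted p) and 62 lower (0.378%) at an adjusted p under 0.05. Its number of calls depended on single libraries. Out of a total of 80, it became 210, 5 and 36 without HFDHFB replicates 1, 2 and 3 in turn, and 22, 12 and 449 without HFDLFB replicates 1, 2 and 3. No gene is therefore taken as shown to differ by DESeq2 alone. Sets of genes that DESeq2 called are still described below, and their membership rests on these unstable calls. Genes are described by their values in each library and by whether the groups overlapped. A gene is named for its place in a list or its p, and one named only because its groups did not overlap was chosen after its values were seen.

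In 1289 genes (8.11%) all 3 HFDHFB libraries were above all 3 HFDLFB libraries, and in 779 (4.9%) all 3 were below. The genes on the high side differed by little, with a median log2 fold change of 0.36 and 88 of 1279 at 2-fold or more once genes named by the study were left out. The low side held larger differences, with a median of -0.52 and 214 of 769 genes at 2-fold or more. The same asymmetry is seen in the plot of fold change against p for all genes, where the genes called lower by DESeq2 reach far to the left and those called higher stay close to 0. The 52 cell type and pathway lists held 606 tested genes, of which 0 passed the edgeR test, 58 (9.57%) did not overlap with HFDHFB higher and 37 (6.11%) did not overlap with HFDHFB lower, shares not far above those of all genes.

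**Figure D2:**
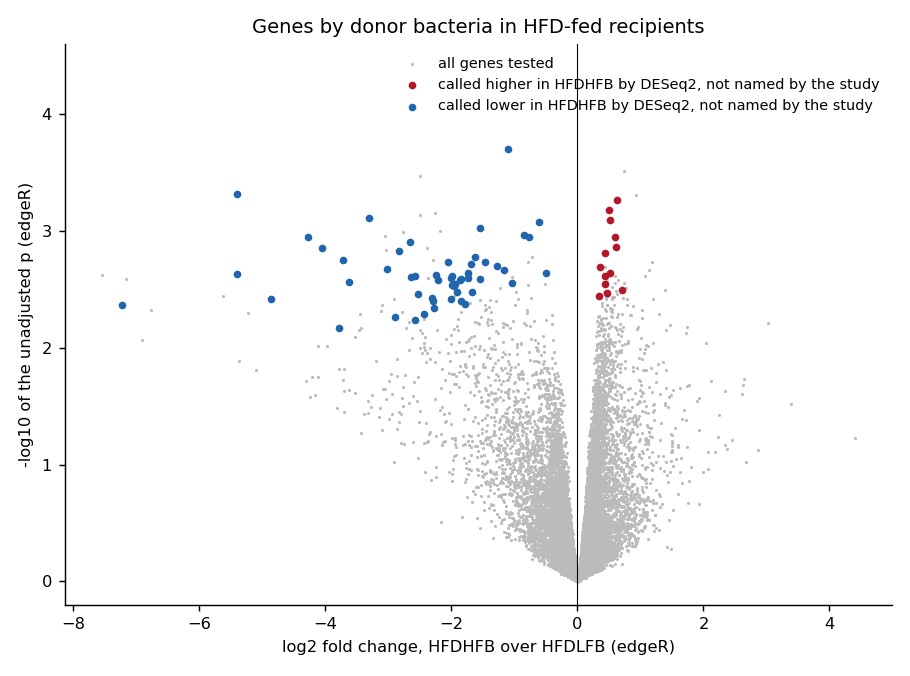
Each point is 1 of 15893 genes, with the log2 fold change of HFDHFB over HFDLFB on the x axis and the -log10 of the unadjusted edgeR p on the y axis. Coloured points are the genes that DESeq2 called, without those named by the study, 13 higher (red) and 52 lower (blue).

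Among innate immune genes, Cd274, Marco, Cd5l and Saa3 were lower in all 3 HFDHFB libraries than in any HFDLFB library, HFDLFB replicate 3 included. That replicate held exocrine pancreas RNA, and HFDLFB replicates 1 and 2 held more mesothelial and adipocyte RNA than HFDHFB. The part of other tissue in these 4 genes was not tested. Cd274 encodes PD-L1, the checkpoint ligand that restrains T cells, and it had the smallest p of all genes outside those named by the study. It was at 7.41, 6.65 and 8.01 CPM in HFDHFB replicates 1, 2 and 3 and at 14.4, 19.5 and 13.6 CPM in HFDLFB. All HFDHFB libraries were thus below all HFDLFB libraries, by a log2 fold change of -1.11 ± 0.20 (SE, adjusted p = 0.495; DESeq2 adjusted p = 0.00219), and by -0.88 with HFDLFB replicate 3 alone. The gene lies at chr19:29441928-29462584 on the plus strand in mm9, the build of the count table. Marco encodes a scavenger receptor by which macrophages bind bacteria, and was chosen after its values were seen. It had 7, 1 and 4 reads in HFDHFB and 173, 125 and 226 reads in HFDLFB, which is a log2 fold change of -5.41 ± 1.11 (SE; DESeq2 adjusted p = 6.47e-05) and -5.78 with HFDLFB replicate 3 alone. Cd5l, a secreted protein of tissue macrophages also chosen after its values were seen, was at 0.898, 0.323 and 0.461 CPM in HFDHFB and 3.78, 4.06 and 4.69 CPM in HFDLFB. Both genes were near 0 in HFDHFB and well above it in each HFDLFB library.

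General macrophage markers had smaller differences. Of 10 macrophage and dendritic cell members 9 were below 0, with Csf1r, Adgre1 and Cd68 at -0.47 ± 0.30, -0.70 ± 0.46 and -0.31 ± 0.37 (SE). Csf1r, the receptor for macrophage colony-stimulating factor, was at 13.99, 19.35 and 16.39 CPM in HFDHFB and 25.3, 29.4 and 14.4 CPM in HFDLFB. Adgre1, a macrophage adhesion receptor, ranged from 5.13 to 7.36 and from 5.95 to 13.6 CPM, and Cd68, a lysosomal protein of phagocytes, from 5.39 to 8.22 and from 4.78 to 9.91 CPM. The groups overlapped for all of these, and of 10 macrophage and dendritic cell markers only Flt3 did not overlap. The median of the list was -0.24, and 0.32 with HFDLFB replicate 3 alone. Ccrl2, a receptor that presents the chemoattractant chemerin, was chosen after its values were seen, and was at 1.70, 2.37 and 1.68 CPM in HFDHFB against 4.07, 4.09 and 3.63 CPM in HFDLFB (-1.03 ± 0.27, SE).

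Of 14 antimicrobial and microbiota response genes, 1 did not overlap in each direction and the median was -0.31. Saa3, an acute-phase serum amyloid A induced by bacteria, was at 4.86, 13.5 and 13.7 CPM in HFDHFB and 64.0, 31.4 and 60.6 CPM in HFDLFB. All HFDHFB libraries were below, with a log2 fold change of -2.28 ± 0.64 (SE), and -2.51 with HFDLFB replicate 3 alone. Retnlb, a goblet cell protein that kills bacteria, had the opposite sign (1.73 ± 0.53, SE) at 139, 168 and 63.4 CPM in HFDHFB and 65.0, 11.7 and 35.0 CPM in HFDLFB, where HFDHFB replicate 3 was just below HFDLFB replicate 1. Itln1, a lectin that binds microbial sugars, was at 3.27, 2.65 and 2.91 CPM in HFDHFB and 1.97, 1.06 and 0.781 CPM in HFDLFB, without overlap.

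None of the interferon-stimulated genes passed the test, but 15 of 16 had a negative log2 fold change, with a median of -0.63 where the median of all genes was -0.002, and 3 did not overlap. These genes are switched on by STAT and IRF factors once interferon binds its receptor. Ifit1, which binds foreign RNA and was chosen after its values were seen, was at 15.9, 18.8 and 23.6 CPM in HFDHFB and 52.9, 25.1 and 43.4 CPM in HFDLFB (-1.06 ± 0.55, SE). Oasl2, an antiviral protein of the oligoadenylate synthetase family, was at 30.2, 32.6 and 48.3 CPM and at 76.1, 60.3 and 47.7 CPM (-0.73 ± 0.23, SE), so that the groups just overlapped. Gbp2, a guanylate-binding protein that attacks intracellular pathogens, had a log2 fold change of -0.89 ± 0.31 (SE). With HFDLFB replicate 3 alone the median of the list was -0.25, and Ifit1 was at -1.16. The 160 bases before the start of Ifit1 and of Cd274 are shown because both genes were lower in every HFDHFB library and each holds the core of the interferon-stimulated response element, searched as GAAANNGAA on both strands. Capitals mark its matches, which here read as the reverse complement. The same stretch held no match before Oasl2 or before Ifit2, which was also lower in every HFDHFB library, at 4.21, 4.48 and 6.73 CPM against 12.1, 9.84 and 6.96 CPM, and was chosen after its values were seen. The sequences are RefSeq sequence on GRCm38.p6, written 5′ to 3′ on the strand of the gene.
Ifit1, chr19:34640729-34640888, plus strand: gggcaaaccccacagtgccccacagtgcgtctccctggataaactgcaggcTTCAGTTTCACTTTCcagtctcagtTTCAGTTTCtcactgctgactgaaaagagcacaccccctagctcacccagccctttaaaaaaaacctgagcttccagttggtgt
Cd274, chr19:29367278-29367437, plus strand: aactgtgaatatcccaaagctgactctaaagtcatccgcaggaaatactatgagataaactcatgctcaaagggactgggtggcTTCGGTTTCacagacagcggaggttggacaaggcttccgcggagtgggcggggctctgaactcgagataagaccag
Over the 250 bases before the start, 8 of the 11 interferon-stimulated genes with a promoter in the table (72.7%) held this core, as did 7.16% of all 27025 promoters. A match describes the letters and does not show that a factor was bound.

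Complement and coagulation genes followed the same direction, 11 of 12 having a negative log2 fold change, with a median of -0.62. C1ra, a protease that starts the classical complement cascade, was at 11.2, 13.02 and 11.7 CPM in HFDHFB and 31.9, 49.0 and 18.6 CPM in HFDLFB (-1.47 ± 0.36, SE; DESeq2 adjusted p = 0.0289). Its partner C1s1 was at 30.2, 35.0 and 37.9 CPM against 87.4, 144 and 41.9 CPM, and the inhibitor Serping1 at 38.8, 52.1 and 58.2 CPM against 164, 187 and 56.0 CPM. HFDLFB replicate 3 was the HFDLFB library closest to HFDHFB for all 3 of these, and with it alone the median of the list was -0.23. The same libraries were those with more mesothelial and adipocyte RNA, whose part in this result was not tested.

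The MHC class II list, which presents extracellular peptides, had a median of -0.28 with all 10 members below 0, but 0.48 with HFDLFB replicate 3 alone. Its members with the smallest p were Ciita (-0.85 ± 0.46, SE), the transactivator of the class, Ctss (-0.25 ± 0.21, SE) and Cd74 (-0.43 ± 0.38, SE), all with overlapping groups. Of the MHC class I and immune checkpoint list, Cd274 was the only 1 of 11 members whose groups did not overlap. Nlrc5, the class I transactivator, had a log2 fold change of -0.94 ± 0.39 (SE) and 0.09 with HFDLFB replicate 3 alone, Tap2, a peptide transporter, -0.28 ± 0.20 (SE), and the median of the list was -0.17. Among 12 chemokines and cytokines (median -0.54), Il33, an alarmin stored in the nuclei of barrier and stromal cells, did not overlap, at 6.58, 6.39 and 7.26 CPM in HFDHFB and 27.5, 21.6 and 9.28 CPM in HFDLFB (-1.53 ± 0.44, SE), with -0.46 for HFDLFB replicate 3 alone. Cxcl9, an interferon-induced T cell attractant (-1.93 ± 0.69, SE), and Ccl20, which attracts CCR6-bearing cells (-0.95 ± 0.62, SE), overlapped.

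T cell markers did not separate the groups. Cd3d, Cd3e and Cd3g, subunits of the T cell receptor complex, ranged from 1.06 to 3.79 CPM in HFDHFB and 0.551 to 5.12 CPM in HFDLFB, and 0 of 10 T cell markers were without overlap (median -0.29). Cd79a and Cd79b, of the B cell receptor complex, had log2 fold changes of -0.26 and -0.13 with SEs of 0.76 and 0.62. Of the 10 members of the B and plasma cell list 7 were below 0 and 3 above, with 2 of these without overlap. Jchain, which joins secreted IgA into dimers, was at 162, 111 and 171 CPM in HFDHFB and 71.6, 94.8 and 51.2 CPM in HFDLFB, without overlap (1.03 ± 0.43, SE). Mzb1, which assists antibody secretion, was at 4.21, 4.30 and 5.49 CPM against 2.89, 3.60 and 1.26 CPM, also without overlap, and Tnfrsf17, the plasma cell survival receptor, had a log2 fold change of 1.18 ± 0.61 (SE) with overlap. The B and plasma cell list as a whole had a median of -0.20. In the neutrophil and mast cell list (8 tested of 10, median -0.73), S100a8 and S100a9, which form calprotectin, and Csf3r, the receptor for the neutrophil growth factor, were at no more than 1.41 CPM in any of the 6 libraries, although S100a8 did not overlap (0.172 to 0.388 CPM in HFDHFB and 0.574 to 0.846 CPM in HFDLFB). Mcpt1, a mucosal mast cell protease, was at 6.03, 9.62 and 11.5 CPM in HFDHFB and 4.25, 5.71 and 4.23 CPM in HFDLFB (0.94 ± 0.41, SE), without overlap. The mast cell genes Cpa3 (-0.69 ± 0.54, SE) and Cma1 (-0.35 ± 0.68, SE) had the opposite sign, with overlap.

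**Figure D3:**
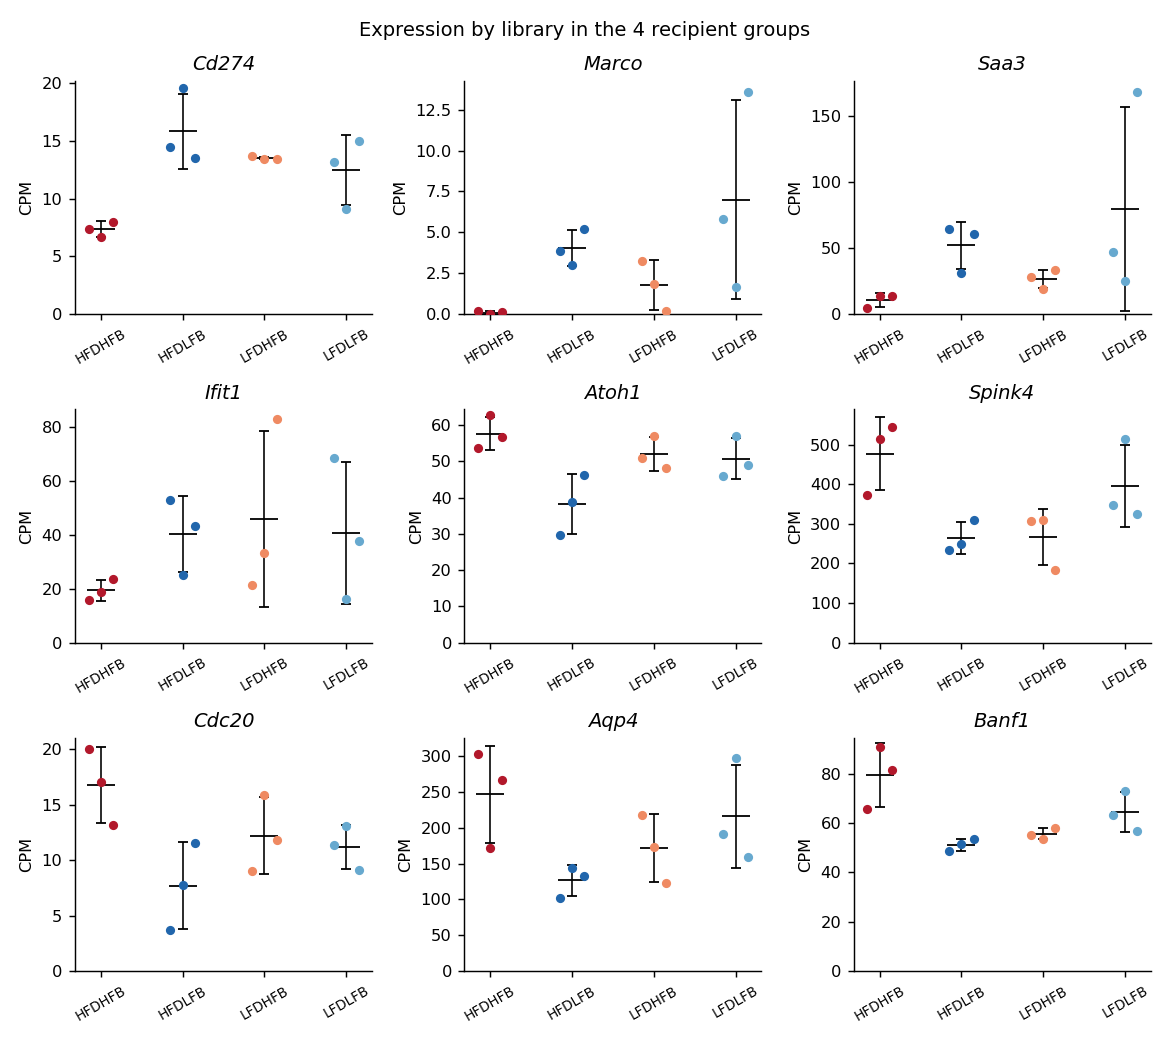
Expression (CPM, y axes from 0) of 9 genes in the 12 libraries of the 4 recipient groups. Points are libraries and black marks the mean ± SD of 3. In each panel the HFDHFB libraries do not overlap with the HFDLFB libraries, and Cd274 is lower in HFDHFB than in any other library.

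No mitotic gene passed the test. All 14 members had a positive log2 fold change, between 0.58 and 1.12 with a median of 0.86, and 6 of them did not overlap, where 8.11% of all genes did so in this direction. Cdc20, which activates the complex that ends mitosis, was at 20.0, 17.0 and 13.2 CPM in HFDHFB and 3.74, 7.79 and 11.5 CPM in HFDLFB (1.12 ± 0.36, SE). Ccnb1, the cyclin that drives entry into mitosis, was at 14.6, 10.5 and 8.28 CPM against 2.95, 5.25 and 7.63 CPM (1.08 ± 0.35, SE). Aurka, a spindle kinase, was at 12.1, 9.77 and 6.56 CPM against 2.53, 4.52 and 6.39 CPM (1.08 ± 0.38, SE). Plk1, Cenpa and Cdk1, the kinase that cyclin B binds, were the other members without overlap. For these genes the lowest HFDHFB library, replicate 3, and the highest HFDLFB library, replicate 3, lay close together, and HFDLFB replicate 1 was far below the rest. The list summed to 57.5 CPM in HFDLFB replicate 1 and to 180 and 231 CPM in replicates 2 and 3, against 396, 234 and 204 CPM in HFDHFB. Its median was 0.54 without HFDLFB replicate 1 and 0.36 with HFDLFB replicate 3 alone.

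Promoters of mitotic genes are known for CCAAT boxes, bound by NF-Y, and for the cell cycle homology region, TTTGAA, through which they are silenced in resting cells. The 160 bases before the start are printed for the 3 members with the smallest p and for Cdk1, with CCAAT, or its reverse complement ATTGG, and TTTGAA in capitals. Cdk1 was not next by p. The same stretch before Plk1, which was next, and before Cenpa and Ccnb2 held CCAAT but no TTTGAA. These are RefSeq sequence on GRCm38.p6, on the strand of the gene.
Cdc20, chr4:118437344-118437503, minus strand: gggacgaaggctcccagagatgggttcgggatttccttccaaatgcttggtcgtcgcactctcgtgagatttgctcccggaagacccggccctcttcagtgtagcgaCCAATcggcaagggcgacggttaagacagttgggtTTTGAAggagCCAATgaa
Ccnb1, chr13:100786487-100786646, minus strand: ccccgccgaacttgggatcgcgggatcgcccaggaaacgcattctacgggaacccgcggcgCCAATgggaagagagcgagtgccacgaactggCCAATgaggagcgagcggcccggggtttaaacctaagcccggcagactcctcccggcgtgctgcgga
Aurka, chr2:172370571-172370730, minus strand: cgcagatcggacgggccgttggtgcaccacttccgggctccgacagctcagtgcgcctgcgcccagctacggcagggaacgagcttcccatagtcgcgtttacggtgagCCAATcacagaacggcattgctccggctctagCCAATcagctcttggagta
Cdk1, chr10:69352913-69353072, minus strand: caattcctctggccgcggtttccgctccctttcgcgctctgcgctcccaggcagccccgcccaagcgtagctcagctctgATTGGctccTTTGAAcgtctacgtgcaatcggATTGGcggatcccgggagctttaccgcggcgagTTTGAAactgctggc
Of the 14 members, 12 had a promoter in the table, and all 12 held CCAAT on either strand within 250 bases before the start, against 34.5% of all 27025 promoters. The cell cycle homology region was found in 6 of the 12 (16.3% of all promoters), each time together with CCAAT (5.76% of all promoters). In the S phase list 9 of 12 promoters held CCAAT and 1 held the homology region.

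S phase genes had smaller differences in the same direction, with 14 of 14 members above 0, 2 without overlap and a median of 0.42. Rrm2, the regulated subunit of ribonucleotide reductase, was at 9.76, 8.63 and 7.14 CPM in HFDHFB and 3.76, 5.71 and 6.27 CPM in HFDLFB (0.70 ± 0.24, SE). Mcm7 (0.34 ± 0.17, SE) and Mcm3 (0.61 ± 0.30, SE), of the replicative helicase, overlapped. Of 10 replication-dependent histones and related genes only 6 were counted often enough to test, with a median of 0.19, and H2afz, the histone variant H2A.Z (0.33 ± 0.13, SE), was the only 1 without overlap. The polyamine and nucleotide synthesis list was above 0 in 13 of 13 tested members, with a median of 0.24 and 4 without overlap. Shmt1 (0.54 ± 0.29, SE) and Impdh2 (0.28 ± 0.17, SE), enzymes of 1-carbon and guanine nucleotide synthesis, overlapped.

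Of the goblet cell list, 5 of 10 members were higher in every HFDHFB library than in any HFDLFB library, where 8.11% of all genes were, and all 5 also had an unadjusted p under 0.05, where 4.85% of all genes did so in this direction. Atoh1, the factor that commits progenitors to the secretory fate, was at 53.6, 62.6 and 56.6 CPM in HFDHFB and 29.8, 38.7 and 46.2 CPM in HFDLFB (0.59 ± 0.16, SE, adjusted p = 0.495; DESeq2 adjusted p = 0.0891). Spink4, a goblet cell peptide with a protease inhibitor fold, was at 373, 515 and 546 CPM against 234, 248 and 310 CPM (0.86 ± 0.25, SE). Spdef, which drives goblet cell maturation, was at 59.1, 81.1 and 80.6 CPM against 47.6, 35.5 and 47.4 CPM (0.76 ± 0.24, SE). Creb3l1 and Agr2, which serve the secretory pathway, made up the 5. The abundant secreted products did not separate. Clca1 was at 7913, 3699 and 7094 CPM in HFDHFB and 4373, 5881 and 5699 CPM in HFDLFB, Fcgbp had a log2 fold change of 0.45 ± 0.31 (SE) and Zg16 of 0.20 ± 0.24 (SE). The median of the list was 0.52, and 0.25 with HFDLFB replicate 3 alone, with which the log2 fold changes of Atoh1, Spink4 and Spdef were 0.32, 0.62 and 0.63. Among 9 tested mucus, glycosylation and trefoil genes (median 0.23), B3gnt6, the enzyme that builds core 3 mucin glycans, was at 25.2, 33.0 and 22.6 CPM in HFDHFB and 9.89, 4.13 and 7.28 CPM in HFDLFB (1.92 ± 0.75, SE). Muc4, a membrane mucin, was at 74.0, 33.9 and 39.6 CPM against 24.6, 22.6 and 23.9 CPM, and Galnt12, which starts mucin glycans, was at 90.4 to 103 CPM against 65.8 to 81.0 CPM. These 3 were the members without overlap.

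Stem cell markers had a median of 0.52, and of 0.15 without HFDLFB replicate 1. Lgr5, the Wnt-dependent stem cell receptor, was at 4.30, 5.19 and 2.38 CPM in HFDHFB and 1.16, 2.37 and 4.75 CPM in HFDLFB, and Ascl2, the stem cell transcription factor, at 3.13, 10.3 and 4.01 CPM against 0.582, 2.66 and 3.93 CPM. Smoc2 had a log2 fold change of -0.20 ± 0.31 (SE). All 3 overlapped, and Cdca7 (0.64 ± 0.27, SE) and Axin2, a Wnt feedback gene (0.56 ± 0.26, SE), were the 2 of 9 without overlap.

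In the other epithelial lists, 1 of 10 colonocyte, 2 of 10 enteroendocrine, 0 of 9 tuft cell and 2 of 10 common epithelial markers did not overlap. Absorptive colonocytes had a median of -0.10, with Car1 and Car4, carbonic anhydrases, at -0.15 ± 0.50 and -0.41 ± 0.43 (SE) and Slc26a3, the chloride and bicarbonate exchanger, at -0.36 ± 0.47 (SE). Enteroendocrine markers had a median of 0.29. Chga, a granule protein, was at 120 to 144 CPM in HFDHFB and 61.4 to 119 CPM in HFDLFB, without overlap, Chgb had a log2 fold change of 0.21 ± 0.53 (SE), and Pyy, the appetite-reducing peptide, was at 69.0, 166 and 117 CPM against 75.4, 73.4 and 79.3 CPM. Tuft cell markers had a median of 0.26, with Dclk1, Trpm5 and Pou2f3 at 0.26 ± 0.37, 0.27 ± 0.45 and 0.45 ± 0.41 (SE). Of the epithelial markers common to all types, Epcam, Cdh1 and Krt8 had log2 fold changes of 0.06 ± 0.18, 0.04 ± 0.26 and 0.24 ± 0.22 (SE), and the median of the list was 0.22, with 9 of 10 members above 0. Small intestinal enterocyte genes had a median of 0.05 over 9 tested members and differed widely in level between libraries and members. Of 3 members chosen after their values were seen, Mep1b, a brush border protease, was at 198 to 260 CPM in HFDHFB and 123 to 243 CPM in HFDLFB, Alpi, the intestinal alkaline phosphatase, at 27.6 to 36.8 CPM and 6.02 to 46.9 CPM, and Enpep, an aminopeptidase and the only 1 without overlap, at 10.2 to 19.6 CPM and 24.5 to 37.8 CPM (-1.02 ± 0.56, SE). Apoc3 was at no more than 0.580 CPM in any of the 6 libraries, Sis, the brush border sucrase, at 3.41 to 26.2 CPM in HFDHFB and 9.36 to 37.9 CPM in HFDLFB, and Apoa4 at 0.575, 0.280 and 4.30 CPM against 0.157, 0.459 and 0.207 CPM.

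In ion and water transport (12 members, median -0.13), Aqp4, a basolateral water channel, was at 302, 171 and 267 CPM in HFDHFB and 102, 144 and 133 CPM in HFDLFB, without overlap (0.97 ± 0.29, SE). Kcnn4, a calcium-activated potassium channel that supports chloride secretion, was at 25.0, 26.2 and 18.2 CPM against 8.23, 13.98 and 17.3 CPM (0.81 ± 0.35, SE). Kcnq1, another potassium channel, overlapped (0.38 ± 0.20, SE). The tight junction and claudin list was centred near 0 (13 members, median -0.05). Its members with the smallest p were Cldn1 (-1.29 ± 0.54, SE), at no more than 4.16 CPM in any library, Cldn15, a pore-forming claudin that did not overlap (0.52 ± 0.28, SE), and Cldn23 (0.38 ± 0.27, SE).

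The cell type lists with the most negative medians apart from the pancreas were those of the adipocyte and the mesothelium. Adiponectin (Adipoq) was at 1.73, 52.1 and 20.0 CPM in HFDHFB and 163, 426 and 47.9 CPM in HFDLFB. The lipid droplet proteins Plin1 and Cidec were at 0.115 to 6.99 and 10.7 to 41.3 CPM in HFDHFB and at 8.59 to 85.2 and 41.1 to 273 CPM in HFDLFB. The list had a median of -2.83, with 10 of 10 members below 0 and 2 without overlap, and -0.66 with HFDLFB replicate 3 alone. Msln, mesothelin, was at 14.98, 13.06 and 27.44 CPM in HFDHFB and 67.6, 115 and 17.99 CPM in HFDLFB, and its log2 fold change of -1.85 ± 0.61 (SE) became 0.04 with HFDLFB replicate 3 alone. The uroplakins Upk3b and Upk1b had log2 fold changes of -2.54 ± 0.69 and -1.89 ± 0.56 (SE), and Lrrn4 of -2.83 ± 0.68 (SE; DESeq2 adjusted p = 0.00491). The mesothelium list had a median of -1.96 and 3 of 7 members without overlap, and -0.35 with HFDLFB replicate 3 alone. Krt5 was too low to be tested.

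Fibroblast markers split. Dcn, decorin, was at 198, 236 and 224 CPM in HFDHFB and 898, 871 and 320 CPM in HFDLFB (-1.67 ± 0.45, SE; DESeq2 adjusted p = 0.0348), while the collagens Col1a1, Col1a2 and Col3a1 had log2 fold changes of 0.30 ± 0.41, 0.24 ± 0.30 and -0.12 ± 0.35 (SE), and the median of the list was -0.15. Endothelial markers were below 0 in 10 of 10 members (median -0.50), and above 0 on balance with HFDLFB replicate 3 alone (median 0.19). Pecam1 was at 10.8 to 26.2 CPM in HFDHFB and 16.4 to 29.98 CPM in HFDLFB, Cdh5 had a log2 fold change of -0.79 ± 0.40 (SE) and Kdr, the receptor for vascular growth factor, of -1.07 ± 0.38 (SE). Lyve1 and Tek were the members without overlap. Smooth muscle went the other way without separating the groups. Myh11, Acta2 and Actg2, of the contractile apparatus, had log2 fold changes of 0.49 ± 0.62, 0.75 ± 0.56 and 0.78 ± 0.75 (SE), and the list summed to 1981, 4974 and 7104 CPM in HFDHFB and 4976, 2304 and 1110 CPM in HFDLFB. The median of the smooth muscle list was 0.72, and it grew to 2.01 with HFDLFB replicate 3 alone. Enteric neuron and glia markers, with Elavl4 and Ret at 0.23 ± 0.79 and 0.30 ± 0.73 (SE) (median of the list 0.29), summed to 49.8, 173 and 166 CPM in HFDHFB and 185, 88.0 and 49.7 CPM in HFDLFB. With HFDLFB replicate 3 alone the median of the enteric list was 1.26. Of the pancreatic list, Cela1 (0.08 ± 0.62, SE) was at 247 to 622 CPM in all 6 libraries, whereas Cela2a was at 88.3 CPM in HFDLFB replicate 3 and at most 1.54 CPM in the others, and Cela3b had 2180 reads there and 19 in HFDLFB replicate 1, with 0 in the other 4 libraries. The median of its 4 tested members was -3.79 and rests on HFDLFB replicate 3, without which it was -0.78.

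Matrix and stromal signalling genes varied in the same libraries as the stromal markers. Extracellular matrix genes had a median of -0.11, and 0.37 with HFDLFB replicate 3 alone. Col14a1 had a log2 fold change of -1.06 ± 0.37 (SE), Timp3, an inhibitor of matrix proteases, did not overlap (-0.41 ± 0.20, SE), and Col4a1, of basement membranes, was at -0.74 ± 0.42 (SE). In the Wnt list (median 0.20), Wnt2b, a ligand made by stromal cells, was at 2.35, 4.50 and 5.88 CPM in HFDHFB and 22.9, 17.6 and 5.72 CPM in HFDLFB (-1.86 ± 0.48, SE; DESeq2 adjusted p = 0.0289), and Wnt5a had the same pattern (-1.49 ± 0.51, SE). HFDLFB replicate 3 lay within the HFDHFB range for both. Myc, a Wnt target in crypts, was at 14.3, 15.2 and 15.5 CPM against 7.004, 11.66 and 10.96 CPM, without overlap (0.60 ± 0.30, SE). In the BMP, TGF-beta and Notch list (median 0.14), Tgfb3 was at -1.22 ± 0.46 (SE), and Id2, a BMP target, did not overlap (0.30 ± 0.14, SE), nor did Id3, whereas the ligand Jag1 did (0.40 ± 0.21, SE).

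Lipid genes that adipocytes also express had large differences in HFDLFB replicates 1 and 2. Cd36, a fatty acid transporter, was at 8.70, 31.0 and 19.8 CPM in HFDHFB and 141, 330 and 43.8 CPM in HFDLFB (-3.11 ± 0.89, SE; DESeq2 adjusted p = 0.0614), and Lpl, lipoprotein lipase, was at 19.6, 96.6 and 37.8 CPM against 213, 757 and 78.1 CPM. For both genes the 2 highest libraries were HFDLFB replicates 1 and 2, as for the adipocyte sum, and the lipid uptake list as a whole had a median of -0.16. Apoa1 had the other sign at 0.483, 1.16 and 4.49 CPM against 0.515, 0.193 and 0.574 CPM (2.25 ± 0.95, SE), with overlap, and its log2 fold change was 0.91 without HFDHFB replicate 3. In fatty acid and triglyceride synthesis (15 members, median -0.22), Dgat2, which makes triglyceride, was at 105, 108 and 121 CPM in HFDHFB and 281, 360 and 124 CPM in HFDLFB (-1.20 ± 0.42, SE), Gpam was at -0.51 ± 0.22 (SE) and Me1 at -1.38 ± 0.87 (SE). Acsl1, which activates fatty acids and was chosen after its values were seen, was at 50.5, 47.2 and 39.0 CPM against 81.7, 172 and 77.4 CPM (-1.28 ± 0.32, SE; DESeq2 adjusted p = 0.0332). For Acsl1 HFDLFB replicate 3 was above all HFDHFB libraries, with a log2 fold change of -0.77 with it alone.

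The fatty acid oxidation and ketogenesis list was centred at 0 (15 members, median -0.06). Acadvl was the only 1 without overlap, at 230 to 242 CPM against 195 to 215 CPM (0.22 ± 0.10, SE). Acaa2 (0.33 ± 0.18, SE) and Slc25a20 (-0.33 ± 0.24, SE) came next by p. Cholesterol synthesis and uptake had a median of 0.09 and 0 of 14 members without overlap, and Sc5d was at -0.27 ± 0.17 (SE) and Srebf2 at 0.18 ± 0.13 (SE). Of the bile acid and short-chain fatty acid sensors (10 tested, median -0.03), Ffar2, a receptor for acetate and propionate, did not overlap, at 9.34, 12.2 and 15.1 CPM in HFDHFB and 7.81, 6.96 and 3.77 CPM in HFDLFB (0.98 ± 0.51, SE). Hcar2, the butyrate and niacin receptor (-1.17 ± 0.53, SE), was at no more than 1.84 CPM in any library, and Vdr, the vitamin D receptor, was at -0.29 ± 0.20 (SE).

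In xenobiotic metabolism (19 tested, median -0.09), Sult1a1, which sulfates phenols, was at 354, 432 and 413 CPM in HFDHFB and 189, 227 and 323 CPM in HFDLFB, without overlap (0.70 ± 0.23, SE). Gstm3 was at 0.52 ± 0.29 (SE) and Abcb1a, the efflux pump, at -0.40 ± 0.28 (SE). Of the flavin monooxygenases and aldehyde dehydrogenases not named by the study (median -0.19), Aldh1a2 and Aldh1a3, which make retinoic acid, were at -2.19 ± 0.72 and -0.88 ± 0.39 (SE), with overlap. Iron genes had a median of -0.37 and 4 of 12 members without overlap, all lower in HFDHFB, where 4.9% of all genes were. The median was -0.03 with HFDLFB replicate 3 alone. Transferrin (Trf) was at 27.4, 52.9 and 34.1 CPM against 164, 325 and 55.2 CPM (-2.25 ± 0.58, SE; DESeq2 adjusted p = 0.0201), Cp, ceruloplasmin, was at -1.02 ± 0.43 (SE) and Hfe at -0.53 ± 0.24 (SE). The other members without overlap were Slc40a1, the iron exporter ferroportin, at 710, 505 and 665 CPM against 733, 1064 and 1003 CPM, Slc11a2, the importer, and Fech, the last enzyme of heme synthesis.

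Glycolysis and hypoxia genes had a median of -0.13, with Pfkfb3 (-1.87 ± 0.59, SE), an activator of glycolysis, Bnip3 (-0.68 ± 0.37, SE), a mitophagy receptor without overlap, and Car9 (0.29 ± 0.18, SE) leading by p. Oxidative phosphorylation genes were above 0 in 12 of 14 members by small amounts (median 0.18). Cox5a, of complex IV, was at 508, 561 and 600 CPM in HFDHFB and 449, 402 and 491 CPM in HFDLFB (0.32 ± 0.13, SE), and Uqcrc1, of complex III, at 374, 482 and 428 CPM against 361, 318 and 373 CPM. Those were the 2 members without overlap, and Ndufv1 followed (0.20 ± 0.11, SE). Cytosolic ribosomal proteins were above 0 in 14 of 14 members, between 0.19 and 0.47 with a median of 0.34. Rps18 (0.47 ± 0.20, SE) and Rpl10a (0.46 ± 0.21, SE) had the smallest p, and only Rpl7 did not overlap. The summed CPM of the ribosomal list in HFDHFB replicate 1, at 9971, was below that of HFDLFB replicates 1 and 3, at 10106 and 10549.

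The 13 genes that DESeq2 called higher and that the study does not name are given here after their values were seen. Banf1, which binds DNA as the nuclear envelope reforms after mitosis, was at 65.5, 91.0 and 81.6 CPM in HFDHFB and 48.5, 51.4 and 53.5 CPM in HFDLFB (0.63 ± 0.13, SE, adjusted p = 0.495; DESeq2 adjusted p = 0.0224). Kpna2, a nuclear import receptor, was at 114, 88.6 and 92.3 CPM against 55.0, 65.6 and 73.8 CPM (0.60 ± 0.14, SE). Suv39h1, which methylates histone H3 at constitutive heterochromatin, was at 13.3, 15.4 and 13.7 CPM against 9.87, 10.9 and 9.86 CPM (0.47 ± 0.13, SE). The groups did not overlap for any of the 13. RNA genes among the 13 were Hnrnpa0 (0.52 ± 0.11, SE), Eif4a3, of the exon junction complex (0.36 ± 0.09, SE), and Rnaseh2c, a subunit of ribonuclease H2 (0.51 ± 0.13, SE). Mitochondrial genes were Atp5g1, of the ATP synthase ring (0.44 ± 0.11, SE), Nipsnap1 (0.61 ± 0.14, SE), Cmc2 (0.44 ± 0.11, SE) and Mrps30, of the mitochondrial ribosome (0.34 ± 0.09, SE). Mettl26, Lmf1 and Ufsp1 completed the 13. None reached 2-fold. With HFDLFB replicate 3 alone their log2 fold changes ran from 0.27 for Mrps30 to 0.72 for Ufsp1. Their positive sign there follows from the lack of overlap and is no separate check.

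The 52 genes called lower by DESeq2 and not named by the study were larger in size and depended on which HFDLFB library was read. Of these, 48 differed by 2-fold or more, 46 did not overlap, and in 46 HFDLFB replicate 3 was the lowest of its group. Relative to the HFDHFB mean, the median of the 52 was 2.28 in HFDLFB replicate 1, 2.53 in replicate 2 and 0.85 in replicate 3 on the log2 CPM scale. With HFDLFB replicate 3 alone, all 52 had the same sign, which the lack of overlap fixes in advance for 46 of them. By size, 16 still differed by 2-fold or more. Genes such as Gpc3 (5.73, 8.33 and 11.3 CPM against 46.3, 44.1 and 10.5 CPM) and Podn (2.12, 4.65 and 4.32 CPM against 14.1, 18.1 and 4.82 CPM), both of extracellular matrix and cell surface, had HFDLFB replicate 3 at the level of HFDHFB. Others did not. Crebl2, a leucine zipper factor, was at 28.3, 24.8 and 24.6 CPM against 37.4, 39.0 and 42.5 CPM (-0.61 ± 0.14, SE), Ap4e1, an adaptor of vesicle transport, at 10.8, 9.17 and 9.96 CPM against 15.6, 19.9 and 15.4 CPM (-0.77 ± 0.18, SE), and Zbtb14, a zinc finger factor, at 14.8, 13.7 and 13.7 CPM against 19.6, 18.3 and 21.9 CPM (-0.50 ± 0.13, SE). In these 3 genes every HFDLFB library, replicate 3 included, stood above every HFDHFB library. Sik2, a kinase that restrains CREB coactivators, was at 15.2, 12.7 and 12.4 CPM against 24.2, 29.5 and 19.3 CPM (-0.85 ± 0.20, SE), and Slpi, a secreted protease inhibitor of mucosal surfaces, at 17.3, 21.8 and 55.8 CPM against 161, 234 and 71.1 CPM (-2.30 ± 0.63, SE). Dpp4, a brush border peptidase that DESeq2 did not call (adjusted p = 0.0566), was at 52.5, 37.3 and 39.0 CPM against 63.7, 79.6 and 68.9 CPM (-0.72 ± 0.17, SE). The genes of this paragraph were chosen after their values were seen.

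**Figure D4:**
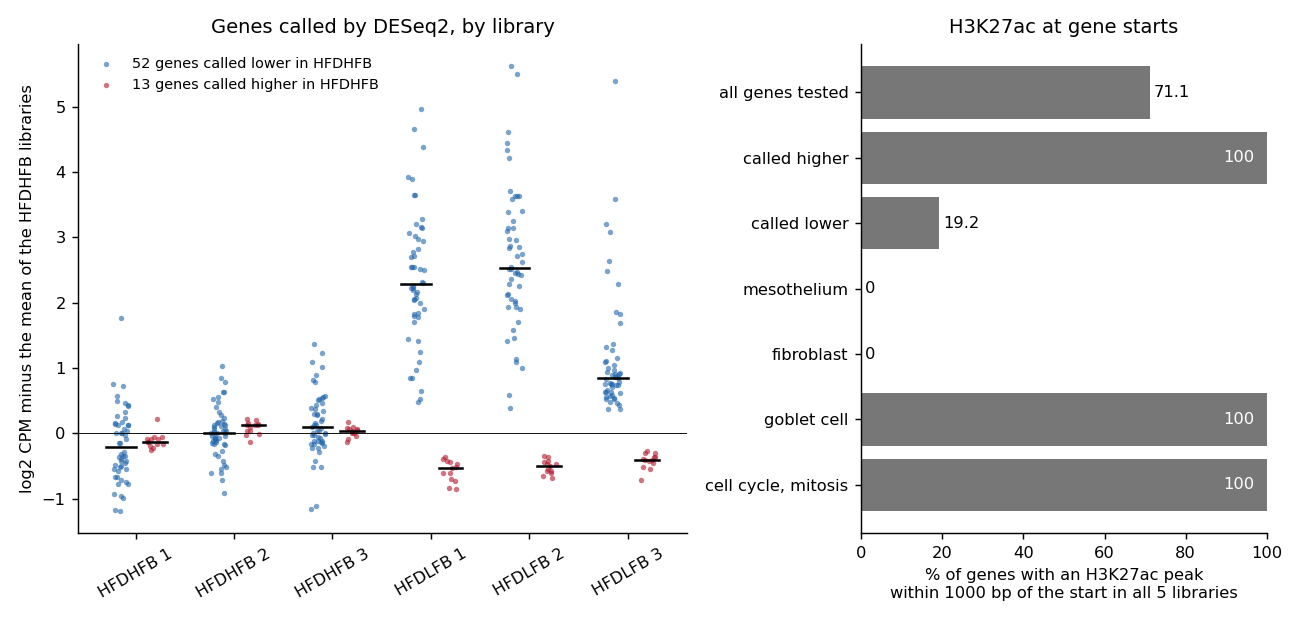
Left, log2 CPM of each gene called by DESeq2 and not named by the study, minus the mean of the 3 HFDHFB libraries, in each library, with black bars at the medians. For the 52 lower genes the median is 2.28, 2.53 and 0.85 in HFDLFB replicates 1, 2 and 3. Right, the percent of genes in 7 sets with an H3K27ac peak within 1000 bp of the gene start in all 5 libraries of the same groups, 100% for the genes called higher and 19.2% for those called lower.

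Regulatory and stress lists showed small differences. Circadian clock genes were below 0 in 15 of 15 members, between -0.79 and -0.16 with a median of -0.28, and remained so on balance with HFDLFB replicate 3 alone (median -0.43). Cry2, a repressor of the clock, was at 65.0, 55.1 and 53.9 CPM in HFDHFB and 95.7, 63.3 and 81.8 CPM in HFDLFB (-0.47 ± 0.18, SE). Tef, an output factor of the clock, was at 216, 234 and 207 CPM against 281, 248 and 300 CPM, without overlap (-0.33 ± 0.14, SE), and Bhlhe41 was at -0.79 ± 0.38 (SE). The labels give no hour of collection. Of the immediate early and AP-1 genes (14 members, median 0.04), Fosb was at 9.87, 3.01 and 3.06 CPM against 2.44, 1.35 and 0.896 CPM (1.76 ± 0.66, SE), Jund at 268, 293 and 333 CPM against 250, 198 and 228 CPM (0.40 ± 0.17, SE), and Ier2 at 0.43 ± 0.17 (SE). Fosb, Jund and Fosl1 did not overlap with HFDHFB higher and Fosl2 with HFDHFB lower. Heat shock genes were above 0 in 10 of 10 members (median 0.24), with Bag3 at 47.7, 56.8 and 50.5 CPM against 41.3, 39.7 and 34.8 CPM (0.42 ± 0.17, SE), Hspa1b at 0.69 ± 0.29 (SE) and Hspe1 at 0.33 ± 0.16 (SE), all without overlap. The unfolded protein response was centred at -0.04. Atf4, its translationally controlled factor, was at 196, 193 and 200 CPM against 150, 137 and 158 CPM, without overlap (0.41 ± 0.14, SE), Chac1 was at -1.16 ± 0.51 (SE) and Dnajb9 at -0.27 ± 0.21 (SE).

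Hox genes had a median of 0.21. Hoxa7 was at 15.8, 14.2 and 14.4 CPM in HFDHFB and 8.64, 9.58 and 10.3 CPM in HFDLFB, without overlap (0.64 ± 0.21, SE), as was Hoxa9 (0.45 ± 0.27, SE), while Hoxc10 (-3.44 ± 1.59, SE) was at no more than 1.16 CPM in any library. Intestinal transcription factors had a median of 0.20. Foxa3, which acts in the secretory lineage, was at 36.6, 48.1 and 40.2 CPM against 24.0, 27.4 and 32.3 CPM (0.58 ± 0.20, SE) and Cdx1, a hindgut identity factor, at 334, 340 and 358 CPM against 235, 258 and 331 CPM (0.33 ± 0.16, SE), both without overlap, whereas Gata4 overlapped at no more than 1.18 CPM (1.54 ± 0.70, SE). Writers, readers and erasers of histone acetylation had a median of 0.09. Hdac8 (0.33 ± 0.14, SE), Hdac3 (0.20 ± 0.09, SE) and Hdac2 (0.34 ± 0.17, SE), all deacetylases, were the 3 of 15 members without overlap.

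**Figure D5:**
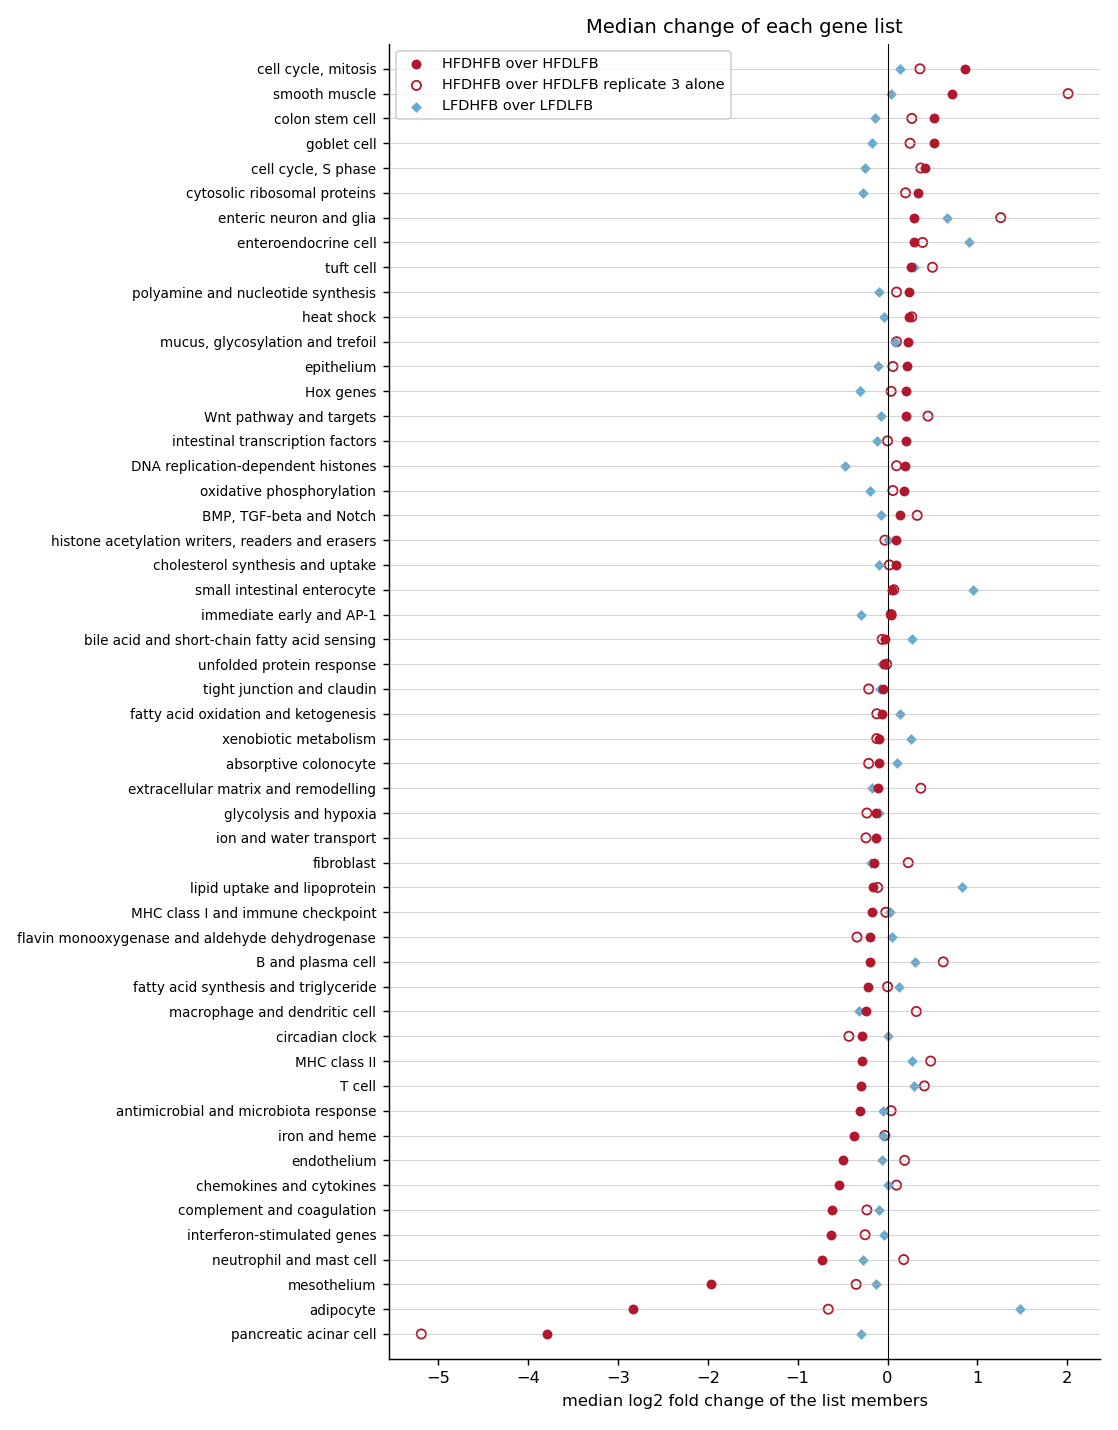
Median log2 fold change of the members of each of 52 gene lists for HFDHFB over HFDLFB (filled circles), for HFDHFB over HFDLFB replicate 3 alone (open circles) and for LFDHFB over LFDLFB (diamonds). Adipocyte and mesothelium have medians of -2.83 and -1.96 in HFD-fed recipients and 1.47 and -0.13 in LFD-fed recipients.

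The same contrast of donor bacteria in LFD-fed recipients, which uses none of these 6 libraries, also gave 0 genes at an adjusted p under 0.05 (0%, smallest 0.975), with 592 at an unadjusted p under 0.05. There, 835 genes (5.25%) did not overlap with LFDHFB higher and 886 (5.57%) with LFDHFB lower. LFDHFB replicate 3 stood apart from the other LFD-fed libraries, with Sis at 187 CPM and Ly6g at 16.3 CPM, where the other 5 held 0.480 to 9.31 CPM of Sis and 226 to 789 CPM of Ly6g. The test of the difference between the diets, as an interaction term in the same fit, gave 0 genes (0%) at an adjusted p under 0.05 (smallest 0.386), 19 at an unadjusted p under 0.001 and 1794 at an unadjusted p under 0.05. So no gene was shown to respond to the donor in a diet-dependent way, and the values below are descriptions.

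Cd274 was at 13.7, 13.5 and 13.4 CPM in LFDHFB and 13.2, 9.12 and 15.03 CPM in LFDLFB, so that the HFDHFB libraries, at 6.65 to 8.01 CPM, were below all 9 others (interaction -1.23, edgeR unadjusted p = 0.00122). Marco was at 3.25, 1.82 and 0.194 CPM in LFDHFB and 5.80, 1.64 and 13.6 CPM in LFDLFB, and Saa3 at 27.9, 19.3 and 33.0 CPM and 46.7, 24.7 and 168 CPM. Both overlapped, with the same sign as in HFD-fed recipients (-1.99 ± 0.88 and -1.58 ± 0.63, SE). For both genes, and for Cd5l at 24.8 CPM, LFDLFB replicate 3 was the highest of the 12 libraries. It also had the largest mesothelial sum of the LFD-fed libraries (200 CPM), whose part here was not tested. Spink4 had the opposite sign to that in HFD-fed recipients, without overlap, at 306, 309 and 185 CPM in LFDHFB and 348, 514 and 325 CPM in LFDLFB. Atoh1 did not differ beyond the spread there (0.04 ± 0.15, SE). Mitotic genes had a median of 0.14, interferon-stimulated genes of -0.04, complement of -0.10 and the clock of 0.01. Rnaseh2c was at 10.5 to 10.8 CPM in LFDHFB and 14.1 to 16.5 CPM in LFDLFB, the reverse of the order in HFD-fed recipients (interaction 1.06, edgeR unadjusted p = 0.000127). The interaction contains the HFD-fed contrast by which Cd274 and Rnaseh2c were picked, so its p is no separate check. Of the 14 oxidative phosphorylation genes, 8 did not overlap with LFDHFB lower (median -0.19). Of the 13 genes that DESeq2 called higher in HFDHFB, 1 had the same sign in LFD-fed recipients, and of the 52 called lower, 20 did. Among all genes without overlap in HFD-fed recipients and not named by the study, 302 of 1279 higher and 288 of 769 lower ones did. Opposite signs were thus common beyond the called genes.

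H3K27ac, the acetylation of histone H3 at active promoters and enhancers, was profiled in EDTA-isolated epithelium of the same groups, with 2 HFDHFB and 3 HFDLFB libraries, and its peak lists record where the mark was called in epithelial cells. Over all genes tested, 71.1% had a peak within 1000 bp of the gene start in all 5 libraries. All 13 genes called higher by DESeq2 did (100%), and 10 of the 52 called lower (19.2%). Among genes without overlap between the RNA groups, 90% of the higher and 61.4% of the lower ones had such a peak. By list, peaks in all 5 libraries were found at 10 of 10 goblet cell genes, 14 of 14 mitotic genes, 14 of 14 ribosomal genes, 13 of 15 clock genes and 11 of 16 interferon-stimulated genes, but at 3 of 12 complement genes, 3 of 10 adipocyte genes, 0 of 10 fibroblast and 0 of 7 mesothelial genes. Of the other epithelial lists, 10 of 10 common epithelial, 9 of 10 colonocyte and 6 of 9 stem cell genes had such peaks. Only 1 of 10 enteroendocrine, 0 of 9 tuft cell and 1 of 9 small intestinal enterocyte genes did. Lack of a peak was thus not confined to lists of other tissues. Presence of a peak in 1 RNA group and not the other was rare. A peak in both HFDHFB libraries and in no HFDLFB library was found at 15 genes, and the reverse at 42, of 15893. The peak lists hold positions without heights, so that a difference in the amount of acetylation could not be read from them.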

How the data were processed

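RNA was sequenced from scraped colon in 12 libraries of recipient mice in 4 groups. Per the labels and the study's methods, the authors aligned reads to mm9 with STAR 2.5 and deposited raw counts per gene from featureCounts 1.5.0-p1. H3K27ac peaks were deposited as SICER intervals per sample, and genome positions count from 1. Here, counts of all 12 libraries (39904191 to 48026846 reads assigned to genes) were fitted with edgeR 4.0.16 in R 4.3.3 (a quasi-likelihood model with a term per group, TMM scaling, the default filter on low counts, which kept 15893 of 25494 rows, and Benjamini-Hochberg adjustment over all genes tested). CPM are TMM-scaled, and log2 CPM add a prior count of 2. Tests are two-sided. DESeq2 1.42.0 served as the other count test, with genes lacking an adjusted p left out. Groups do not overlap when all 3 libraries of a group lie beyond all 3 of the other. On simulated counts for this comparison, with 15893 genes, 30 of 67 genes changed 2-fold, 51 of 70 changed 4-fold and 55 of 63 changed 8-fold were recovered, with 2 unchanged genes called. Each gene was drawn independently, without shared shifts in tissue composition, and the changed genes were not taken from the lowest expressed. These rates therefore do not measure recovery in the real libraries. The comparison, the 52 lists and the tests were chosen with earlier results of these data known. As edgeR called no gene, the text names the first 3 genes of each cell type list. It also names up to the 3 members of a list with the smallest p, and others as chosen after their values were seen. Genes that the study names were left out. Some other genes that this rule takes are not reported here. Counting was not stated to use strand, so overlapping and antisense genes cannot be told apart. Promoters (RefSeq, GRCm38.p6) were matched by symbol. Alternatives were DESeq2, RLE size factors, no filter or a stricter filter on low counts, the 6 HFD-fed libraries alone, the replicate number as a block and each library left out. Comparisons with HFDLFB replicate 3 alone, limma-voom (limma 3.58.1) and further DESeq2 fits were added after seeing the data. No column of per-sample values was left unused.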

Additional observations from a re-analysis of the deposited data

How the results depend on the processing

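Under edgeR, 0 genes were called with RLE size factors, with no filter or a stricter filter on low counts, with the 6 HFD-fed libraries alone and with each library left out (smallest adjusted p 0.0738, without HFDLFB replicate 3), and 14 genes in the fit as reported had an unadjusted p under 0.001. Limma-voom also called 0. DESeq2 called 80, and 139 on the 6 HFD-fed libraries alone, of which 61 were among the 80. Leaving out a library it called 5 to 449 (210, 5 and 36 without HFDHFB replicates 1, 2 and 3, and 22, 12 and 449 without HFDLFB replicates 1, 2 and 3). With HFDLFB replicate 3 alone, edgeR called 12 genes, all lower in HFDHFB and known from the exocrine pancreas, and DESeq2 14. List members called were 10 by DESeq2 and 6 with HFDLFB replicate 3 alone. A fit of a lone library assumes that it varies like the other groups. With the replicate block, 0 genes were called (smallest adjusted p 0.729). Same-numbered libraries correlated at -0.591, 0.0556 and -0.434 in their deviations from the group means. Of the 6 libraries, only HFDLFB replicate 2 correlated best with its own number. The labels name no pairing, and these values cannot show whether same-numbered libraries shared a batch. The block turned the sign of Hoxd13 -0.10, Cd3e 0.04 and Elavl4 -0.03. The share of all genes with an H3K27ac peak was 74.6% within 5000 bp and 75.2% with a peak in at least 3 of 5 libraries.

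Of 220 named genes, 16 changed the sign of their log2 fold change when a library was left out, none of them with 0.5 or more in size. Their lowest and highest values were Car1 -0.50 to 0.14, Cd3d -0.58 to 0.23, Cd3e -0.49 to 0.63, Cd79a -0.75 to 0.33, Cd79b -0.39 to 0.35, Cdh1 -0.18 to 0.18, Cela1 -0.21 to 0.43, Chgb -0.02 to 0.36, Col1a1 -0.02 to 0.67, Col3a1 -0.41 to 0.25, Elavl4 -0.06 to 0.56, Epcam -0.05 to 0.22, Hoxd13 -0.47 to 0.90, Pecam1 -0.59 to 0.01, Ret -0.01 to 0.64 and Smoc2 -0.44 to 0.29. With HFDLFB replicate 3 alone the sign turned for 33 named genes, with log2 fold changes of Epcam -0.20, Cdh1 -0.20, Hoxd13 -0.61, Csf1r 0.20, Adgre1 0.04, Cd68 0.46, Cd74 0.48, Nlrc5 0.09, Cxcl9 0.27, Cd3d 0.63, Cd3e 1.54, Cd79a 0.74, Cd79b 0.60, S100a9 1.33, Csf3r 0.44, Lgr5 -0.27, Smoc2 0.36, Chgb -0.02, Kcnq1 -0.08, Msln 0.04, Col3a1 0.77, Pecam1 0.24, Cdh5 0.07, Cela1 -0.42, Col4a1 0.27, Tgfb3 0.23, Me1 0.29, Hcar2 0.47, Cp 0.04, Hfe 0.16, Bhlhe41 0.40, Chac1 0.40 and Hoxc10 1.31. The cause was not tested. Groups of 3 limit the precision of every value.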

Other observations

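The remaining list members whose libraries did not overlap between the groups are given here, chosen after their values were seen. Among epithelial genes, Krt18, a keratin of simple epithelia, was at 523, 502 and 539 CPM in HFDHFB and 444, 309 and 428 CPM in HFDLFB (0.41 ± 0.20, SE), and Elf3, an epithelial transcription factor, was at 716, 750 and 658 CPM in HFDHFB and 535, 619 and 655 CPM in HFDLFB (0.23 ± 0.28, SE). Cck, the hormone cholecystokinin of enteroendocrine cells, was at 0.829, 1.097 and 1.38 CPM in HFDHFB and 0.515, 0.145 and 0.322 CPM in HFDLFB (1.74 ± 0.87, SE). Cck was thus low in every library, while Krt18 and Elf3 were well expressed. Of polyamine and nucleotide enzymes, Odc1, which makes putrescine, was at 144, 123 and 109 CPM in HFDHFB and 97.1, 107 and 99.4 CPM in HFDLFB (0.31 ± 0.21, SE), and Sms (0.24 ± 0.25, SE), Umps (0.17 ± 0.17, SE) and the replication factor Gins2 (0.62 ± 0.32, SE) followed. Mcpt2, another mucosal mast cell protease, was at 3.29, 4.35 and 4.95 CPM in HFDHFB and 2.17, 3.24 and 2.71 CPM in HFDLFB (0.63 ± 0.42, SE). Its direction was that of Mcpt1 and opposite to that of the mast cell genes Cpa3 and Cma1.

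On the low side, Scnn1a, a subunit of the epithelial sodium channel, was at 249, 197 and 245 CPM in HFDHFB and 263, 249 and 279 CPM in HFDLFB (-0.20 ± 0.34, SE), and Ceacam20, a colonocyte surface protein, was at 302, 210 and 284 CPM in HFDHFB and 338, 363 and 308 CPM in HFDLFB (-0.34 ± 0.25, SE). Scarb1, the receptor for high-density lipoprotein, was at 26.8, 27.1 and 25.9 CPM in HFDHFB and 31.5, 28.7 and 28.6 CPM in HFDLFB (-0.16 ± 0.12, SE), and the remaining enzymes were Enpep (-1.02 ± 0.56, SE), an aminopeptidase, and Ces1d (-0.79 ± 0.58, SE), a carboxylesterase. Ifit2, an interferon-induced RNA-binding protein, was at 4.21, 4.48 and 6.73 CPM in HFDHFB and 12.1, 9.84 and 6.96 CPM in HFDLFB (-0.91 ± 0.40, SE). F5 (-1.74 ± 0.72, SE), a coagulation factor, Npas2 (-0.34 ± 0.30, SE), a clock factor, Lep (-3.70 ± 1.41, SE), which encodes leptin, and Wt1 (-1.96 ± 0.59, SE), a mesothelial factor, completed the list members with HFDHFB lower. None of these genes passed the edgeR test (adjusted p of at least 0.495).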
